A study of Mus musculus with 7 samples.

Results

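The genes described here are 10 apolipoprotein genes (*Apoa1*, *Apoa2*, *Apoa4*, *Apoa5*, *Apob*, *Apoc1*, *Apoc2*, *Apoc3*, *Apoe* and *Apoh*), of 14851 genes in a table of liver RNA-seq. The family was chosen by *Apoa1*, which had been seen to be higher in p53-deficient livers in these same data, so the *Apoa1* difference is given as a description with no test. The question put to the other 9 genes is whether they share it, above all *Apoc3*, *Apoa4* and *Apoa5*, which lie beside *Apoa1* on chromosome 9. The livers belonged to 4 mice of genotype *Albumin-Cre; p53*FL/FL (FL) and 3 of genotype *Albumin-Cre; p53*WT/WT (WT), all male, on a C57BL/6J background and about 70 days old. They were taken 8 h after 1 intraperitoneal injection of carbon tetrachloride (CCl4; 20% in corn oil, 1 mL/kg), a solvent that hepatocytes convert into toxic radicals. The *Albumin* promoter drives Cre in hepatocytes, and the sources describe the deletion as specific to the liver or to hepatocytes. Which other liver cells kept *Trp53* was not measured here. The controls carry the same Cre, and some mice of both genotypes may also carry a Cre-dependent red fluorescent reporter in *Rosa26*. All mice had CCl4, so nothing here compares treated with untreated livers. The sources state that animals were matched for age and litter where this could be done and were treated together. The source names of the WT livers share 1 prefix and those of the FL livers carry others; what the prefix stands for is not given, and it cannot be told apart from genotype.

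Apolipoproteins are the protein part of lipoproteins, the particles that carry cholesterol and triglyceride in blood, and hepatocytes make most of them. ApoA-I and apoA-II are the main proteins of high-density lipoprotein (HDL), and apoB is the structural protein of very-low-density lipoprotein. ApoE is the ligand by which receptors clear remnant particles. The C apolipoproteins and apoA-V govern lipolysis: apoC-II activates lipoprotein lipase, apoC-III restrains it and apoA-V promotes it. ApoA-IV rides on chylomicrons and HDL, and apoH, or beta-2-glycoprotein I, is a plasma protein that binds phospholipid.

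Values are normalised counts, that is, read counts per gene that the authors divided by a size factor for each library and rounded. The values of single livers are listed in replicate order, FL 1 to 4 and WT 1 to 3. Log2 fold changes are FL minus WT on the scale of log2(normalised count + 1). They come from limma over the 12545 genes with a mean of at least 10, with p-values adjusted by the Benjamini-Hochberg method against a threshold of 0.05. Depth was estimated as 11.9 to 19.5 M reads per FL liver and 15.4 to 17.1 M per WT liver. *Trp53* had 110 to 217 normalised counts in FL livers and 688 to 876 in WT livers (log2 fold change -2.47, standard error 0.23, limma adjusted p = 0.0447), so no library went against its label. Hepatocyte markers were abundant in every liver. Their sum over 7 markers, mostly *Alb*, was 1349280 to 1768738 in FL and 1164405 to 1458648 in WT livers. Of these markers, *Ttr* was higher in every FL liver (68660 to 85481 against 51671 to 67365, log2 fold change 0.39). *Cyp3a11* was lower in every FL liver (15797 to 25024 against 27678 to 57805, -0.83), and the other markers of the list overlapped. Both were singled out after their values were seen, with limma adjusted p = 0.999. WT replicate 2 and FL replicate 3 stood apart from the other 5 livers on the first principal component, which held 66.7% of the variance, at 82.0 and 29.2 against -25.6 to -19.1. Values are therefore also given without these livers. In whole liver, fewer cells of a type and less RNA per cell cannot be told apart.

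*Apoa1* (ENSMUSG00000032083) is on chromosome 9 (GRCm38, 46228580 to 46230466, plus strand). Normalised counts were 144629, 183396, 208540 and 208104 for FL, and 121251, 114388 and 116468 for WT livers. Every FL liver was above every WT liver, but the FL livers were spread widely and the WT livers narrowly, with means of 186167 ± 30082 (SD, n = 4) and 117369 ± 3519 (SD, n = 3). The lowest FL liver, replicate 1, was nearer to the highest WT liver than to the other FL livers. The ratio of the means was 1.59 and the log2 fold change 0.65 (standard error 0.20). Across 17 settings of the analysis, each described with the processing, the *Apoa1* log2 fold change ranged from 0.52 to 0.77, and it was 0.57 without WT replicate 2 and FL replicate 3. *Apoa1* made up 0.907% to 1.32% of all normalised counts in FL livers and 0.750% to 0.810% in WT livers.

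The bases before the annotated start of genes in both apolipoprotein clusters are shown because the question turns on genes that lie side by side, each with a start of its own. They were read from RefSeq windows of GRCm38.p6 and end at the base before the GENCODE start, 5′ to 3′ along each gene. Capitals mark matches on either strand to the motifs searched.
*Apoa1* (chr9:46228430-46228579, plus strand): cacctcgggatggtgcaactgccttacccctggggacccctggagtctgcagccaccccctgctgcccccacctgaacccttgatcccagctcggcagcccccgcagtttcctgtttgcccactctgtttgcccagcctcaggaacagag
*Apoa4* (chr9:46240594-46240695, plus strand): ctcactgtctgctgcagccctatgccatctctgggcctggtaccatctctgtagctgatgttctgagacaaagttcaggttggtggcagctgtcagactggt
*Apoa5* (chr9:46268483-46268632, plus strand): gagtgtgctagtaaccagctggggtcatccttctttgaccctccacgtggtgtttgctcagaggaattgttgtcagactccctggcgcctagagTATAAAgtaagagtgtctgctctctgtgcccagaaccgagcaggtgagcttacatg
*Apoe* (chr7:19699189-19699338, minus strand): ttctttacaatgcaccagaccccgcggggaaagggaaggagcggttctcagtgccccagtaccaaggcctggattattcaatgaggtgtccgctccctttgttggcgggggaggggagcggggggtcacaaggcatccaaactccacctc
*Apoc2* (chr7:19677942-19678091, minus strand): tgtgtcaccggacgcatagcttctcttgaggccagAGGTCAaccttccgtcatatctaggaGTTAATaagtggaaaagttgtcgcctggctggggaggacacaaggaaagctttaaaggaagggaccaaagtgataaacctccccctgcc

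The motifs were searched on both strands of the 250 bases before each RefSeq start, and the share of 32851 such windows of all genes that hold each is given beside it. They were the TATA box TATAAA (12.4%), the nuclear receptor half-site AGGTCA (14.0%), the HNF4-type half-site AAAGTCC (3.58%), the CCAAT box (33.8%), the GC box GGGCGG (32.7%), the HNF1 half-site GTTAAT (6.43%) and the direct repeat AGGTCANAGGTCA (0.0335%), which contains the nuclear receptor half-site. *Apoa5* held TATAAA 56 bases before its start. *Apoc2* held AGGTCA 115 bases and GTTAAT 89 bases before its start. *Apob* held TATAAA 60 bases before its start, and *Apoa2* held TATAAA and CCAAT further out than the stretches printed. None of these letters was in the *Apoa1*, *Apoa4* or *Apoe* windows. *Apoc1*, *Apoc3* and *Apoh* were not searched.

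Of the 3 cluster neighbours, *Apoc3* and *Apoa5* as deposited were higher in every FL liver than in any WT liver by less than *Apoa1*, and *Apoa4* was not. With libraries scaled to equal totals, *Apoc3* and *Apoa5* overlapped between the genotypes. Of all tested genes 2.77% were higher in every FL liver as deposited. The share was 13.7% of genes with a mean of at least 20000, a cut chosen after the values were seen. *Apoc3*, the inhibitor of lipoprotein lipase, is read from the minus strand (46232933 to 46235636), towards *Apoa1*. It stood at 24136, 25543, 24704 and 31820 normalised counts in FL, and at 21082, 23296 and 21632 in WT livers. The groups did not overlap, though FL replicate 1 was only just above WT replicate 2, and FL replicate 4 was well above the other FL livers. *Apoc3* differed by 0.26 on the log2 scale (standard error 0.14, 95% confidence interval -0.06 to 0.59). The unadjusted limma p was 0.0969. With the 7 livers reassigned in all 35 ways, the exact permutation test (two-sided) gave p = 0.0571. Without FL replicate 4 the log2 value was 0.17.

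*Apoa5*, whose product promotes triglyceride lipolysis, lies on the plus strand (46268633 to 46271919). It stood at 34733, 36761, 35468 and 38009 normalised counts in FL, and at 34294, 29215 and 28374 in WT livers. WT replicate 1 was just below the lowest FL liver and well above the other WT livers. For *Apoa5* the log2 fold change was 0.25 (standard error 0.13, 95% confidence interval -0.05 to 0.55, unadjusted limma p = 0.0921), and the exact permutation test gave p = 0.0286, the smallest these groups allow.

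*Apoa4* lies between them on the plus strand (46240696 to 46243459). Normalised counts were 30605, 44023, 25529 and 41779 for FL, and 30208, 45553 and 25886 for WT livers. The highest and the lowest of the 7 livers were WT replicate 2 and FL replicate 3, and the groups overlapped over nearly their whole ranges. *Apoa4* differed by 0.07 on the log2 scale (standard error 0.26, 95% confidence interval -0.54 to 0.68, unadjusted limma p = 0.788, exact permutation p = 0.886). It ran from -0.10 to 0.45 over the settings, with the highest value when WT replicate 2 and FL replicate 3 were both left out, so neither a difference nor its lack was established for *Apoa4*. Genes annotated on the opposite strand overlap both *Apoa4* and *Apoa5*.

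**Figure D1:**
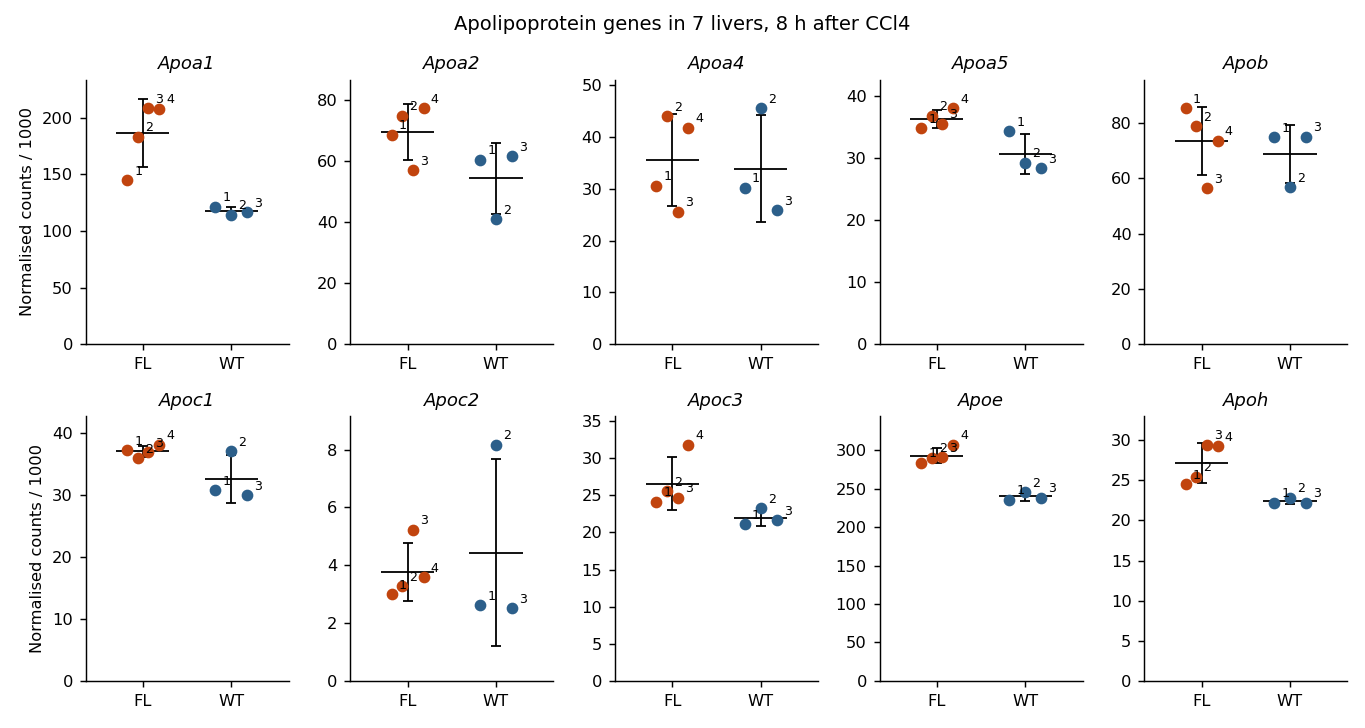
Normalised counts (divided by 1000, vertical axes from 0) of the 10 apolipoprotein genes in 4 FL and 3 WT livers, with 1 point per liver numbered by replicate, the mean as a line and the SD as an error bar. All FL points lie above all WT points for *Apoa1*, *Apoa5*, *Apoc3*, *Apoe* and *Apoh*, and WT replicate 2 is the highest point for *Apoc2*.

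Within each liver, *Apoa1* also stood higher against *Apoc3* and *Apoa5* in FL mice, a comparison that library scaling does not touch. The ratio of *Apoa1* to *Apoc3* normalised counts was 5.99, 7.18, 8.44 and 6.54 for FL, and 5.75, 4.91 and 5.38 for WT livers. The ratio of *Apoa1* to *Apoa5* was 4.16, 4.99, 5.88 and 5.48 in the FL and 3.54, 3.92 and 4.10 in the WT livers. Neither ratio overlapped between the genotypes, with gaps at the nearest livers that were small. The ratios of *Apoa1* to *Apoa4*, *Apoa2*, *Apoe* and *Apob* did overlap. Because *Apoa1* chose the family, these ratios are descriptions and were not tested.

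*Apoa2*, the second protein of HDL, lies on chromosome 1 (171225054 to 171226379, plus strand). It stood at 68749, 74938, 57008 and 77437 normalised counts in FL, and at 60475, 40952 and 61653 in WT livers. FL replicate 3 fell among the WT livers and WT replicate 2 was the lowest of all. The log2 fold change, 0.37 (standard error 0.20, 95% confidence interval -0.10 to 0.84, unadjusted limma p = 0.107, exact permutation p = 0.114), was the highest of the 9 genes beside *Apoa1* when all livers were used. It was 0.18 without WT replicate 2 alone, where *Apoc2* (0.52) and *Apoa4* (0.31), among others, were higher, and 0.27 without WT replicate 2 and FL replicate 3, where *Apoa4*, *Apoc2*, *Apoc3*, *Apoe* and *Apoc1* were higher.

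*Apob* lies on chromosome 12 (7977648 to 8016835, plus strand). It stood at 85417, 78877, 56527 and 73607 normalised counts in FL, and at 74975, 56782 and 75008 in WT livers. FL replicate 3 and WT replicate 2 were the lowest of their genotypes, at nearly the same level, and the groups overlapped. *Apob* differed by 0.09 on the log2 scale (standard error 0.20, 95% confidence interval -0.37 to 0.55, unadjusted limma p = 0.664, exact permutation p = 0.6), and its sign turned with the library scaling.

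*Apoe*, which ranked second to *Alb* in every liver by normalised counts not corrected for length, heads a further cluster on chromosome 7 (19696109 to 19699188, minus strand). It stood at 283868, 290338, 291120 and 307219 normalised counts in FL, and at 235592, 245782 and 238446 in WT livers. Both groups were tight and did not overlap. The ratio of the means was 1.22 and the log2 fold change 0.29 (standard error 0.18, 95% confidence interval -0.14 to 0.71, unadjusted limma p = 0.155), while the exact permutation test gave p = 0.0286, the smallest possible. The limma variance of a gene is drawn towards that of genes at similar levels. The *Apoe* interval is therefore wider than the spread of its own values would give.

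*Apoc1* (19689481 to 19692660, minus strand), whose product slows the uptake of remnants, stood at 37223, 35995, 36956 and 38143 normalised counts in FL, and at 30776, 37111 and 29982 in WT livers. WT replicate 2 lay among the FL livers, and the other WT livers lay below all of them. *Apoc1* differed by 0.19 on the log2 scale (standard error 0.13, unadjusted limma p = 0.185, exact permutation p = 0.0857), and 0.29 without WT replicate 2 and FL replicate 3.

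*Apoc2* (19671579 to 19677941, minus strand), the activator of lipoprotein lipase, was the only member with a log2 fold change below 0. It stood at 2996, 3267, 5228 and 3594 normalised counts in FL, and at 2621, 8165 and 2514 in WT livers. WT replicate 2 and FL replicate 3 were each the highest of their genotype. With all livers the log2 fold change was -0.04 (standard error 0.41, 95% confidence interval -0.99 to 0.92, unadjusted limma p = 0.933, exact permutation p = 0.971). It became 0.52 without WT replicate 2 and 0.35 without both livers that stood apart, so its sign depended on single livers, and leaving out FL replicate 1 or 2 also turned it. Of the 36-base stretches of *Apoc2* transcripts, 78.7% also occur in the overlapping gene *Gm44805* of GENCODE vM21 on the same strand. *Gm44805* is not among the genes with deposited values, and whether the annotation the authors counted with holds it was not checked. If it does, reads could have been left uncounted, so the *Apoc2* level is uncertain. The other 9 members shared 0 such stretches with another gene.

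*Apoh* (chromosome 11, 108343354 to 108414396, plus strand) lies on the chromosome of the floxed *Trp53* allele. It stood at 24537, 25424, 29429 and 29244 normalised counts in FL, and at 22215, 22819 and 22197 in WT livers. The groups did not overlap, and the WT livers were nearly identical. The log2 fold change was 0.27 (standard error 0.12, 95% confidence interval -0.02 to 0.56, unadjusted limma p = 0.0606, exact permutation p = 0.0571). Its gene overlaps *Prkca* on the opposite strand. The libraries were stranded, but whether the counting used strand is not given in the sources used here.

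Over the family, 0 of the 9 members other than *Apoa1* passed the threshold in limma (adjusted p = 0.999 for each), where 2 of 12545 genes did (0.0159%, both lower in FL livers). At an unadjusted p under 0.05 the 9 also gave 0, against 3.2% of all genes (1.59% higher in FL livers). FL livers were above WT livers with no overlap for 5 of 10 members, *Apoa1* included, and for 4 of the other 9. Among all tested genes 348 did so (2.77%), 1.98% were lower with no overlap, and 4.76% did not overlap in either direction. Among the 95 genes with a mean of at least 20000, members included, the share was 13.7%, a cut chosen after the values were seen. Without *Apoa1*, the log2 fold change was above 0 for 8 of 9 members, where it was for 51.6% of all genes, and the median was 0.25, where that of all genes was 0.0069. With *Apoa1*, whose direction chose the family, these were 9 of 10 and 0.26.

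The livers that stood apart bore on these counts. Without WT replicate 2 and FL replicate 3, only FL replicates 1, 2 and 4 and WT replicates 1 and 3 remained. In that fit 6 of the 9 members had an unadjusted limma p under 0.05, all higher in FL livers. Of all genes 9.74% had one in either direction, and the share higher in FL livers alone was not counted. They were *Apoa2*, *Apoa4*, *Apoc1*, *Apoc2*, *Apoc3* and *Apoh*, and the 95% confidence interval was 0.09 to 0.82 for *Apoa4* and 0.14 to 0.56 for *Apoc2*. None passed the threshold over all genes, and the lowest adjusted p from limma was 0.285, for *Apoc2*.

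The size of these differences depended on how libraries were scaled. Normalised counts summed to 15851380 to 16554427 in FL livers and 14123213 to 15538815 in WT livers, which did not overlap. When every library was scaled to the same total, the median of all genes moved by -0.11 on the log2 scale, and the median of the members fell to 0.14. The median of the members lay 0.247 above that of all genes with equal totals and 0.248 above it as deposited. With equal totals, only *Apoa1* and *Apoe* of the 10 members were higher in every FL liver, where 93 genes (0.741%) were, while 5.6% of genes were lower in every FL liver. The equal-total log2 fold changes were 0.54 for *Apoa1*, 0.26 for *Apoa2*, 0.18 for *Apoe*, 0.16 for *Apoh*, 0.15 for *Apoc3*, 0.14 for *Apoa5* and 0.08 for *Apoc1*. Those of *Apoa4* (-0.04), *Apob* (-0.02) and *Apoc2* (-0.15) were below 0. With quantile normalisation the median of the members was 0.07, which is 0.057 above that of all genes, and *Apoe* was at 0 by construction, since its rank was the same in every liver. Together the 10 members made up 4.62% to 5.13% of the normalised counts in FL livers and 4.00% to 4.42% in WT livers. Without *Apoa1* the shares overlapped, at 3.55% to 3.87% and 3.25% to 3.61%.

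**Figure D2:**
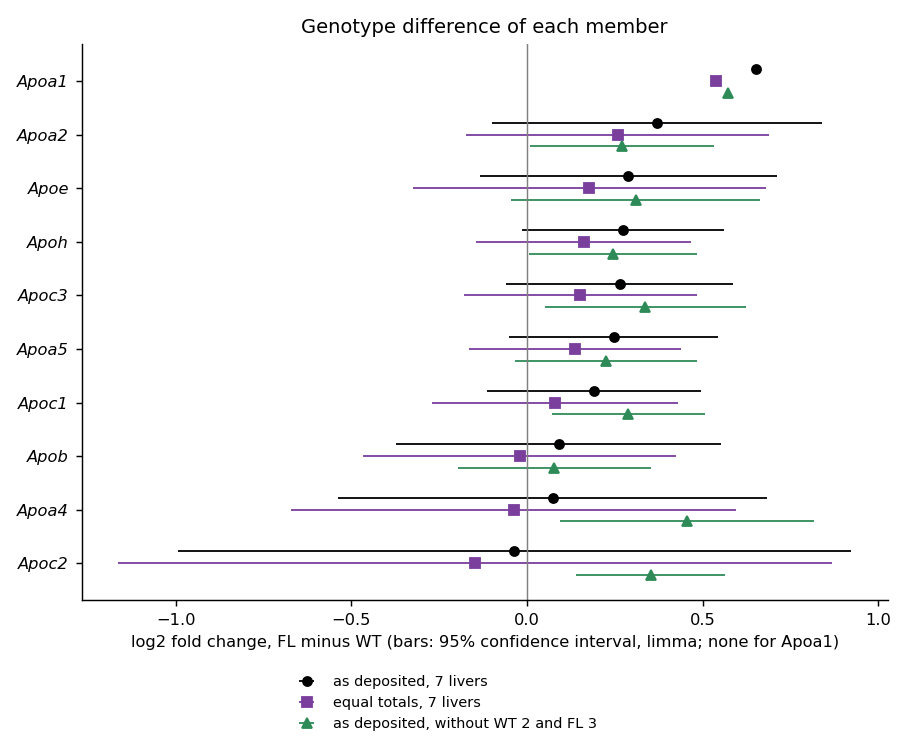
Log2 fold change (FL minus WT, horizontal axis) of each member as deposited, with libraries scaled to equal totals, and without WT replicate 2 and FL replicate 3. Bars are 95% confidence intervals from limma, and none is drawn for *Apoa1*. For *Apoe* as deposited the bar is wider than the spread of its own values would give. Every interval as deposited includes 0, and *Apoa4* and *Apoc2* move furthest between the settings.

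The genes around each cluster were read in order along the chromosome. The chromosome 9 cluster spans 43.34 kb, and of the 5 nearest protein-coding genes on each side 8 were tested. Of these 8, 0 had groups that did not overlap, with log2 fold changes from -0.45 to 0.22 and a median of 0.07. *Sik3*, a kinase gene 4.4 kb before *Apoa1*, was at 0.17 (standard error 0.23), and *Zpr1*, which encodes a zinc finger protein and starts 1.1 kb beyond *Apoa5*, at 0.10 (standard error 0.14). The chromosome 7 cluster spans 27.61 kb and also holds *Apoc4*, which was at 0.14 (standard error 0.14). Its 10 tested neighbours ranged from -0.52 to 0.42 with a median of -0.03. *Clptm1* beyond *Apoc2* was at 0.02 and *Tomm40*, a mitochondrial import pore gene 2.1 kb from *Apoe*, at -0.03. *Bcl3*, a partner of NF-kB proteins, was the 1 neighbour whose groups did not overlap (log2 fold change 0.42, standard error 0.16, unadjusted limma p = 0.0268, exact permutation p = 0.0286). Whether members differed from their neighbours was not tested.

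**Figure D3:**
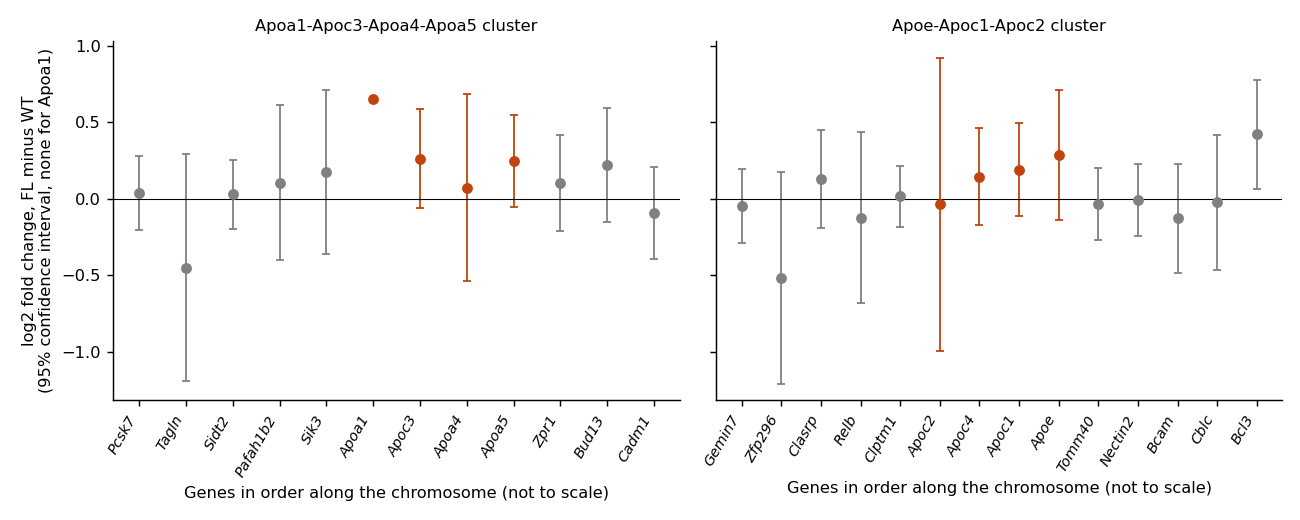
Log2 fold change (FL minus WT, vertical axis) with 95% confidence intervals from limma for the genes of both clusters (orange) and their tested neighbours (grey), in chromosome order and not to scale; no interval is drawn for *Apoa1*. *Apoa1* is the highest point in either panel at 0.65, and its immediate neighbour *Sik3* is at 0.17.

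The livers that stood apart did so in several members, and not in the same direction. In WT replicate 2 *Apoc2* was 3.18 times and in FL replicate 3 1.60 times the level of the other livers of its genotype. *Apoa2* was lower in both, at 0.67 and 0.77 times, and so was *Apob*, at 0.76 and 0.71 times. *Apoa4* went opposite ways, at 1.63 times in WT replicate 2 and 0.67 times in FL replicate 3. *Apoe* and *Apoa5* differed little, between 0.94 and 1.04 times. The same livers differed in markers of other cells: 9 of 10 Kupffer cell and macrophage markers were highest in WT replicate 2, with a sum of 16532 against 6392 and 7080 in the other WT livers, and 8 of 10 were the highest of the FL livers in FL replicate 3 (10129 against 6544 to 7814). Macrophages also make apoC-II and apoE. Of other lists, WT replicate 2 had the highest value of the 7 livers in 5 of 6 stellate cell and 4 of 6 sinusoidal endothelial markers. It did so in 6 of 9 periportal hepatocyte, 2 of 5 neutrophil and 0 of 5 cholangiocyte markers. In FL replicate 3 the numbers that were highest of the FL livers were 4, 5, 9, 3 and 0, in the same order. All 8 proliferation markers were likewise highest in WT replicate 2 and, of the FL livers, in FL replicate 3 (1233 against 123 and 170 in WT, 340 against 115 to 145 in FL). Of 8 pericentral hepatocyte markers, 6 were lowest in WT replicate 2 and 7 were the lowest of the FL livers in FL replicate 3 (sums 17357 against 73198 and 80439 in WT, 30181 against 57308 to 70948 in FL). The part of these cells in the member levels was not tested. Between the genotypes the marker sums overlapped, at 6544 to 10129 in FL and 6392 to 16532 in WT livers for macrophages and 30181 to 70948 and 17357 to 80439 for pericentral hepatocytes. Single markers separated the genotypes although the sums did not. Of 5 cholangiocyte markers, with sums of 603 to 1482 in FL and 879 to 1204 in WT livers, *Krt19* (6 to 21 in FL, 26 to 128 in WT, log2 fold change -2.41, exact permutation p = 0.0286) and *Krt7* (2 to 18 in FL, 28 to 33 in WT, -1.78, exact permutation p = 0.0571) were lower in every FL liver. *Sox9* was higher in every FL liver (297 to 763 against 204 to 261, 1.14, exact permutation p = 0.0571). Of the pericentral markers, *Oat* was lower in every FL liver (1068 to 1836 against 1958 to 4185, -0.90, exact permutation p = 0.0286). None of these genes passed the threshold in limma (adjusted p = 0.999), and they were singled out after their values were seen. Of 7 intestinal epithelium markers, checked because the intestine also makes several members, *Lct* and *Sis* were not analysed here, *Cdx1* and *Cdx2* were at 0 in every FL liver and at 14 or less in the WT livers, and *Fabp2* made up most of the sum (666 to 1006 in FL, 494 to 1169 in WT). *Vil1* of this list was at 3, 3, 6 and 3 in FL, and at 29, 25 and 7 in WT livers (log2 fold change -2.001, standard error 0.57, limma adjusted p = 0.999, exact permutation p = 0.0286).

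**Figure D4:**
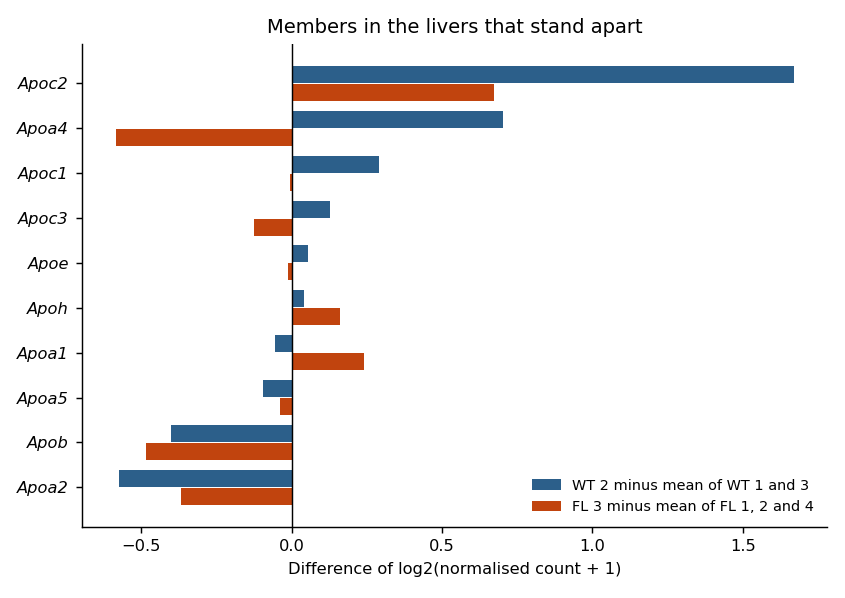
Difference of log2(normalised count + 1), horizontal axis, between WT replicate 2 and the mean of the other WT livers (blue) and between FL replicate 3 and the mean of the other FL livers (orange) for each member. *Apoc2* is raised and *Apoa2* and *Apob* are lowered in both, while *Apoa4* goes up in WT replicate 2 and down in FL replicate 3.

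Levels of different genes were set side by side per kilobase of exon. The length was that of all annotated exons of a gene merged, 1236 bases for *Apoa1* and 2138 for *Apoe*. A gene whose liver transcript is shorter than that is understated, so the order of genes at near levels depends on the length used. On this scale *Apoa1*, *Apoe* and *Apoa2* formed the top of the family. Their means over the 7 livers were 126766, 126444 and 117375 normalised counts per kb. The ranges of these genes overlapped over the livers, and the order differed between the genotypes: in WT livers the means were 112226 for *Apoe*, 101229 for *Apoa2* and 94959 for *Apoa1*, and in FL livers 137108, 129484 and 150621. *Apoc1* followed at 47271 and was separated from both sides. *Apoc3* (24262), *Apoa4* (19172), *Apoh* (15761) and *Apoa5* (13416) came next, each overlapping its neighbour in the order. *Apob*, whose transcript is by far the longest of the family, and *Apoc2* were lowest at 5138 and 4988, again overlapping, with *Apoc2* (5453) above *Apob* (4946) in the WT means.

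Other genes of lipoprotein biology were read from lists. Of 14 further genes tested from a list of other apolipoproteins, which also holds the apoA-I binding protein gene *Naxe*, 12 had a log2 fold change above 0 and 2 below, with a median of 0.29, and 0 had groups that did not overlap. The highest were the acute phase genes *Saa1* (1.42, standard error 0.70) and *Saa2* (1.37, standard error 0.69), whose values overlapped widely. Without FL replicate 3 they were at 0.91 and 0.84, and without both livers that stood apart at 0.84 and 0.86. *Saa1* ran from 538 to 4920 in FL and from 378 to 1176 in WT livers. The lowest were *Apol7a* (-0.34) and *Naxe* (-0.03), which encodes a metabolite repair enzyme.

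Of 12 genes for apoB lipoprotein assembly, editing and secretion, 10 were above 0 with a median of 0.10. *Sec24d* (0.16) and *Mia2* (0.15), which act in export from the endoplasmic reticulum, were highest, and *A1cf* (-0.20), a cofactor of *Apob* mRNA editing, and *P4hb* (-0.01), a subunit of the microsomal triglyceride transfer complex, were lowest. In these 4 genes the groups overlapped. They did not in 1 of the 12, *Lman1*, a cargo receptor of the secretory pathway, at 4345 to 4441 in FL and 3652 to 4291 in WT livers (0.11, standard error 0.10); it was named after its values were seen. Of 12 HDL genes, 7 were above 0 and 5 below, with a median of 0.04. *Bmp1*, a protease that trims the propeptide of apoA-I, had 2613 to 2958 normalised counts in FL and 2182 to 2268 in WT livers, with no overlap (0.29, standard error 0.09, limma adjusted p = 0.999). *Lipg*, endothelial lipase, was at 0.25, *Pon3*, a paraoxonase, at -0.14 and *Abcg1*, a cholesterol exporter, at -0.32, each with overlapping groups.

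Of 7 genes that control lipoprotein lipase, 5 were above 0 with a median of 0.15. *Angptl8* (0.32) and *Angptl4* (0.30), which inhibit the lipase, and *Lpl* itself (-0.31) and lysosomal *Lipa* (-0.20) overlapped between the genotypes, and *Lpl* was at 1183 in WT replicate 2 against 166 to 483 in the other livers. Of 11 clearance genes, 5 were above 0 and 6 below, with a median of -0.02. *Mylip*, which marks the LDL receptor for degradation, was higher in every FL liver (261 to 361 against 198 to 256; 0.36, standard error 0.16, and 0.24 without WT replicate 3). The receptors *Vldlr* (-0.45, standard error 0.33) and *Lrp2* (-0.48, standard error 0.48) overlapped between the genotypes. *Lrp2* was near the floor, at 5 to 19 normalised counts.

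Of 28 transcription factors known to act on apolipoprotein genes, 18 were above 0 with a median of 0.04, and 4 had groups that did not overlap, all higher in FL livers, as 2.77% of all genes were. *Srebf1*, a regulator of lipid synthesis, was at 2118 to 3447 in FL and 1576 to 2034 in WT livers (0.52, standard error 0.19). *Cebpb* (0.84, standard error 0.33) overlapped and was at 0.51 without WT replicate 2. *Nr2f2* (-0.31) and *Nr0b2* (-0.80, standard error 0.90) were lowest, both overlapping. Of 22 other abundant secreted hepatocyte proteins, 21 were above 0, with a median of 0.23, close to that of the apolipoproteins, and 3 were higher in every FL liver. The share higher in every FL liver was 2.77% of all genes. It was 13.7% of genes with a mean of at least 20000, a level that most of these 22 reach. *Serpina1e* (1.05, standard error 0.35) and *Serpina1c* (0.43, standard error 0.25), genes for alpha-1-antitrypsin, were highest (0.66 and 0.15 without WT replicate 2), and *Kng1* (0.06) and *C3* (-0.18) lowest. None of the genes in these lists passed the threshold in limma, and the unadjusted p was under 0.05 for 1 HDL gene, 4 transcription factors and 3 secreted proteins, all higher in FL livers, out of 12, 28 and 22 tested; of all genes 1.59% were higher at that p.

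**Figure D5:**
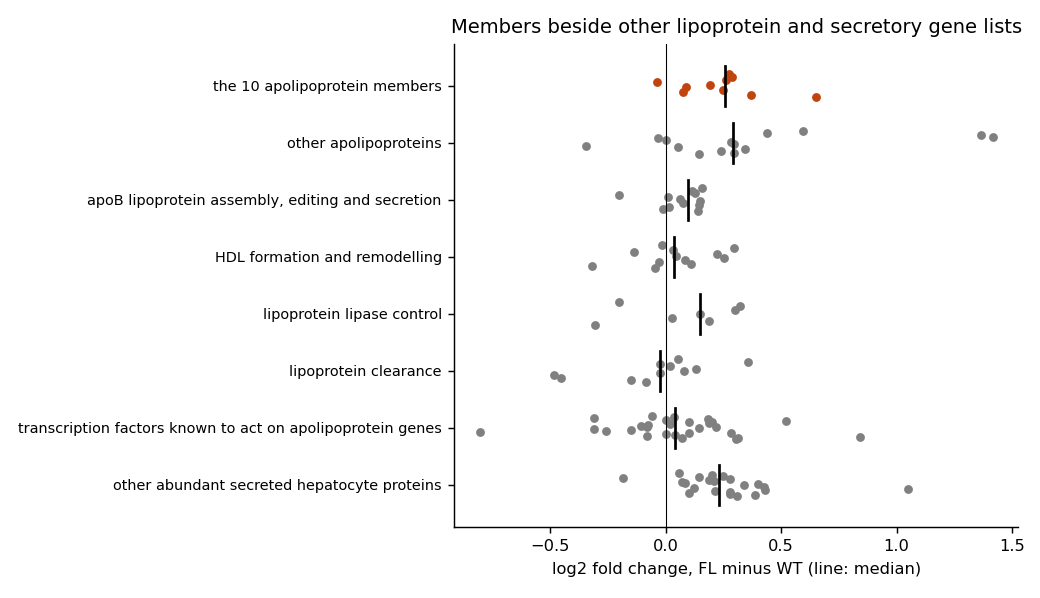
Log2 fold change (FL minus WT, horizontal axis) of each tested gene in the family (orange) and in 7 lists (grey), with 1 point per gene and the median of each list as a line. The median of the members is 0.26, beside 0.29 for other apolipoproteins, 0.23 for other secreted hepatocyte proteins and -0.02 for clearance genes.

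The genes whose pattern was most like that of *Apoa1* were not apolipoproteins. Likeness was measured as the root mean square difference between log2 values centred over the 7 livers, on which a gene with the same value in every liver would lie 0.361 from *Apoa1*. Of 12544 genes ranked, the nearest were *Xaf1* and *Dhx58* (both 0.110), *1500026H17Rik* (0.113), *Cyp39a1* (0.133) and *Fgl1* (0.135). *Xaf1* (from 72301629) and *Dhx58* (from 100694884) lie on chromosome 11, as does the floxed *Trp53* allele (from 69580359). What this position adds was not tested. *Fgl1* stood at 4651, 5094, 6118 and 5926 normalised counts in FL, and at 4404, 3446 and 3155 in WT livers. *Apoa1* chose the family and was higher in every FL liver, so genes higher in FL livers tend to lie near it by construction. The ranks are therefore a description and were not tested. Among the members, *Apoh* came first at rank 54, followed by *Apoe* (110), *Apoc3* (157), *Apoa5* (202), *Apoc1* (709) and *Apoa2* (915). *Apob* (6051), *Apoa4* (7442) and *Apoc2* (10482) were further from *Apoa1* than a flat gene would be.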

How the data were processed

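Liver RNA from 4 FL and 3 WT mice was read as stranded libraries, and samples were grouped by their labels. The authors aligned reads with Tophat 2.0.13 and Bowtie 2.2.6.0 to the mouse genome (Ensembl release 75), made counts per gene (HTSeq in the methods, featureCounts in the submitters' processing notes) and scaled them by DESeq2 size factors. What the authors deposited are the scaled counts in whole numbers, treated here as a score rather than as counts, so no count model was fitted. The table held 14988 rows for 14851 identifiers; the 120 repeated ones had identical values and were kept once. Unused columns numbered 0. GENCODE vM21 (GRCm38) gave symbols, coordinates and exon lengths, and RefSeq windows of GRCm38.p6 gave the bases before gene starts.

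Genotypes were compared by limma 3.58.1 in R 4.3.3 (mean-variance trend) on log2(normalised count + 1), for genes with a mean of at least 10, and adjusted over all of them. The fit was tested on simulated data with a common spread for all genes and independent livers. That test does not cover livers that stand apart, as some did here. Exact two-sided permutation tests used the 35 ways of forming the groups. Replicates are separate mice. Python 3.11.15, pandas 2.3.3, NumPy 2.4.6, SciPy 1.17.1 and Matplotlib 3.10.9 were used otherwise. The depth of each library was estimated from the spacing of its low values, with 1 read worth 0.812 to 1.38 normalised counts.

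The members, lists, markers and alternatives were chosen with earlier results of these data known. Named genes were *Trp53*, the members, the genes flanking each cluster, the 5 genes nearest to *Apoa1* and, from each list, the genes past the threshold or else the 2 highest and 2 lowest by log2 fold change; *Bmp1*, *Mylip* and *Srebf1* fall under this rule, and *Bcl3* was named after its values were seen. Of the genes this rule takes, 1 is not reported here. The 17 settings were the fit described, pseudocounts of 0.5 and 5, no filter, a mean of at least 50, equal totals, quantile normalisation, no trend, a replicate block, each liver left out, and WT replicate 2 and FL replicate 3 left out together.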

Additional observations from a re-analysis of the deposited data

Results flagged for a closer look

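In 61 results the 4 FL livers were searched for 1 liver far from the rest, by the size of its gap as a share of the whole range (Dixon's test). It was found in 4, where chance gives about 3.05 at 1 in 20, but the results share livers and are not independent. The single markers *Vil1* (gap 1 of the range) and *Fabp2* (0.889) were not among the 61. All 4 flagged results concern FL replicate 3, which stood apart on the first principal component, and none is a member of the family. *Apol7a* had 530 normalised counts there against 234 to 259 in the rest of the group (gap 0.916 of the range). *Nr0b2* had 162 against 14 to 24 (0.932). The sum of the intestinal epithelium markers, mostly *Fabp2*, was 1006 against 666 to 697 (0.909), and that of the proliferation markers 340 against 115 to 145 (0.867). Groups of 3 were not examined.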

How the results depend on the processing

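Over the 17 settings 0 of the 9 members other than *Apoa1* passed the threshold. Over all genes 2 passed with the fit described, with a pseudocount of 0.5, with no filter and with equal totals; 1 passed with quantile normalisation, and 0 with a pseudocount of 5, a mean of at least 50, no trend or the replicate block, where 110 to 465 genes had an unadjusted limma p under 0.05. Leaving out each liver gave 0 to 5 genes, 5 without WT replicate 3 (where 0, limma gave 248 to 739 at that unadjusted p), and leaving out both livers that stood apart gave 6. The median of the members was 0.14 with equal totals and 0.067 with quantile normalisation, and without *Apoa1* 0.14, 0.055 and, with the replicate block, 0.18. Leaving out each liver moved the last median between 0.18 and 0.29, lowest without FL replicate 4, the liver that the block leaves without a partner. The replicate numbers are not described as pairs, and deviations of same-numbered livers had correlations of 0.44, -0.48 and -0.66; 0 genes passed with the block. Signs turned with equal totals for *Apoa4* (-0.038), *Apob* (-0.021), *Kng1* (-0.052), *Zpr1* (-0.0071) and *Clptm1* (-0.10). Signs turned with quantile normalisation for *Apoa4* (-0.077), *Apob* (-0.050), *Kng1* (-0.15) and *Clptm1* (-0.067). Signs turned with the replicate block for *Apoa4* (-0.017). Signs turned with both livers left out for *Apoc2* (0.35), *Naxe* (0.012), *Sec24d* (-0.074), *Abcg1* (0.091), *Lpl* (0.32), *Lipa* (0.054) and *Sik3* (-0.0032). With each liver left out in turn, log2 fold changes whose sign turned ran as follows: *Apoa4* -0.10 to 0.31, *Apob* -0.043 to 0.21, *Apoc2* -0.33 to 0.52, *Apol7a* -0.62 to 0.091, *Naxe* -0.081 to 0.031, *P4hb* -0.12 to 0.065, *Mia2* -0.0058 to 0.23, *Sec24d* -0.18 to 0.37, *Abcg1* -0.66 to 0.24, *Lpl* -0.82 to 0.59, *Lipa* -0.40 to 0.11, *Angptl4* -0.20 to 0.75, *Kng1* -0.025 to 0.19, *Sik3* -0.11 to 0.34, *Zpr1* -0.026 to 0.20, *Clptm1* -0.0022 to 0.031 and *Tomm40* -0.083 to 0.015. The other named genes kept their sign except that *Apoe* was at 0 with quantile normalisation, *Trp53* was lower in FL livers in each setting but lost its call in 10, and the cause of these changes was not tested. The limma standard errors of the 9 members, 0.12 to 0.41 on the log2 scale, limit which differences could be called; what depth adds to them was not tested.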
